A study of Mus musculus with 6 samples.

Results

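The genes described here are 6 factors of the core pluripotency network, Pou5f1 (which encodes Oct4), Sox2, Nanog, Sall4, Utf1 and Lin28a, measured in mouse embryonic stem (ES) cells before and after induction of a human GTF2I transgene. Their members were taken as every probe set whose single gene symbol was one of these 6, which gave 10 probe sets of the 45037 tested and 6 genes of the 18193 represented on the array. Pou5f1, Sox2 and Nanog each had 1 probe set, Sall4 and Lin28a had 2 and Utf1 had 3. The protein made from GTF2I, TFII-I, regulates transcription, its gene is among those lost in Williams-Beuren syndrome, and the study profiled induced against uninduced cells.

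All cells descended from the ES line EBRTcH3 and were grown in serum medium with leukemia inhibitory factor. Each of the clones A1, B3 and C6 carried the human GTF2I coding sequence, tagged with a FLAG epitope and lacking the untranslated regions, at the Rosa26 locus behind a promoter that tetracycline represses. The uninduced group (3 arrays) was grown with tetracycline, at 0 h without it, and the induced group (3 arrays) was collected 24 h after the drug was withdrawn, with 1 array per clone and state. A characteristics field of the samples gives GTF2IRD2 as the expressed gene while their titles give GTF2I, which is used here. There was no clone without a transgene taken off tetracycline, so the effects of the transgene and of tetracycline withdrawal cannot be told apart. Each array came from bulk RNA, in which fewer cells of a type and less RNA per cell cannot be told apart.

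The arrays were alike in bulk, with medians between 5.06 and 5.11 on the log2 scale and correlations between arrays of 0.991 to 0.996. All 8 ES cell markers examined (Zfp42, Esrrb, Fbxo15, Dppa5a, Tdgf1, Fgf4, Alpl and Gdf3) lay above the upper quartile of every array, and their mean was 11.48 on each uninduced array and ranged from 11.34 to 11.58 on the induced ones. None of the 7 trophectoderm, 8 primitive endoderm, 9 fibroblast or 5 measured mesoderm markers reached the upper quartile of every array, and 1 of 7 neural markers did. The mouse Gtf2i probe sets do not check the transgene, which is human. By RT-PCR, the paper reports more GTF2I transcript after tetracycline withdrawal than before it in each of the clones. Those measurements are not array values, so they do not show which state label belongs to which array. Clone A1 stood apart in 2 respects. Its induced minus uninduced difference ran opposite to those of both B3 and C6 at 41.4% of all probe sets, so results are given below with and without it. Whether its arrays carry each other's state labels cannot be settled from the labels, and an exchange would turn the sign of every A1 difference given here. In addition, the mean of the 4 primed epiblast markers (Fgf5, Pou3f1, Otx2 and Dnmt3b) ranged from 7.06 to 7.67 on the uninduced and from 6.97 to 7.79 on the induced arrays, and Otx2, singled out after its values were seen, read 5.70 and 5.50 on the uninduced and induced arrays of A1 against 7.35 to 7.93 on the 4 arrays of B3 and C6. Dnmt3b was also lower on both A1 arrays (10.99 and 10.90, against 11.50 to 11.74). Pou3f1 went the other way, at 7.40 and 7.48 on the A1 arrays against 6.94 to 7.24, and Fgf5 did not separate the clones. The part of these clone differences in the results was not tested.

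Mouse ES cells keep the capacity to form all tissues of the embryo through a small network of factors that sustain one another's transcription. Oct4, a POU-domain protein, and Sox2, an HMG-box protein, bind side by side at a composite DNA element near many ES cell genes, including their own and Nanog, and the homeodomain protein Nanog reinforces the state. Sall4 is a zinc finger protein that associates with Oct4 and with the NuRD chromatin remodelling complex, Utf1 is a chromatin-associated protein expressed in undifferentiated cells, and Lin28a is an RNA-binding protein that blocks maturation of the let-7 microRNAs.

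Letters of the elements bound by Oct4 and Sox2 were searched for in the start regions of the network's own genes. RefSeq promoter windows (GRCm38.p6, 250 bases before to 50 bases after a start site) were found by symbol for 5 of the 6 genes, and there was none for Sall4. The letters searched on both strands were ATGCAAA (octamer), CATTGT (Sox), the Sox letters followed by any 1 base and the octamer letters on one strand (composite), GGGCGG (GC box) and AGGTCA (nuclear receptor element), where a composite match also counts as a Sox and as an octamer match. Of all 32851 windows, 4.63% held the octamer letters, 12.6% the Sox letters, 35.7% a GC box and 16.3% a receptor element. The composite occurred in 2 windows (0.00609%), which were the overlapping windows of the 2 Nanog start sites. Only these exact letters were searched, so composite elements spelled otherwise were not counted. The 250 bases upstream of the first start site are shown for Nanog and Sox2, because Nanog holds the octamer and Sox letters side by side and Sox2 the octamer letters alone, and for Utf1, which had the largest A1 contrast, described below, among the brightest probe sets. Each is written 5′ to 3′ on the strand of the gene, with every motif match in capitals.
Nanog, chr6:122707239-122707488, + strand: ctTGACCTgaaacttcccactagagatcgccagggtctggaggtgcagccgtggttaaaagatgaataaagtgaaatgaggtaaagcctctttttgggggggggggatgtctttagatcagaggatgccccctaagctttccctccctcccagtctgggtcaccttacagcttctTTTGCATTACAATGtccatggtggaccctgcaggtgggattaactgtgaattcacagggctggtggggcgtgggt
Sox2, chr3:34649745-34649994, + strand: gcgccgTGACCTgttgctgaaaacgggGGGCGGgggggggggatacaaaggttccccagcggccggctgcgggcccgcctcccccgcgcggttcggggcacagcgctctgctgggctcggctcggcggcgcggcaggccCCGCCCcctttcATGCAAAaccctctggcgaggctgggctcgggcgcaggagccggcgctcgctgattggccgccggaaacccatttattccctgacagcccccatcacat
Utf1, chr7:139943606-139943855, + strand: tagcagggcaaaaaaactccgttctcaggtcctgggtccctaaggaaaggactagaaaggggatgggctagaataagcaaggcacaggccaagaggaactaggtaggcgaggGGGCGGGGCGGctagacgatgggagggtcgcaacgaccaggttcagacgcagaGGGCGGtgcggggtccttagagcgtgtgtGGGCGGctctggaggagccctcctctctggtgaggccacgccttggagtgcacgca
In Nanog the octamer letters lay 75 to 69 bases upstream of the start site and the Sox letters 67 to 62 bases upstream, both on the opposite strand, with a receptor element 248 to 243 bases upstream. In Sox2 the octamer letters lay 99 to 93 bases upstream on the same strand as the gene, beside GC boxes at 223 to 218 and 111 to 106 bases and a receptor element at 244 to 239 bases. The Utf1 window held 4 GC boxes, 2 of which share 1 base, and no octamer or Sox match. A GC box 45 to 40 bases and a receptor element 33 to 28 bases upstream were found at the first Pou5f1 start site, and the second held a Sox match 158 to 153 bases upstream. Lin28a had Sox letters 96 to 91 bases upstream and, on the opposite strand, a GC box 32 to 37 bases after the start site. These matches describe the letters in the windows and are not binding sites by themselves.

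**Figure D1:**
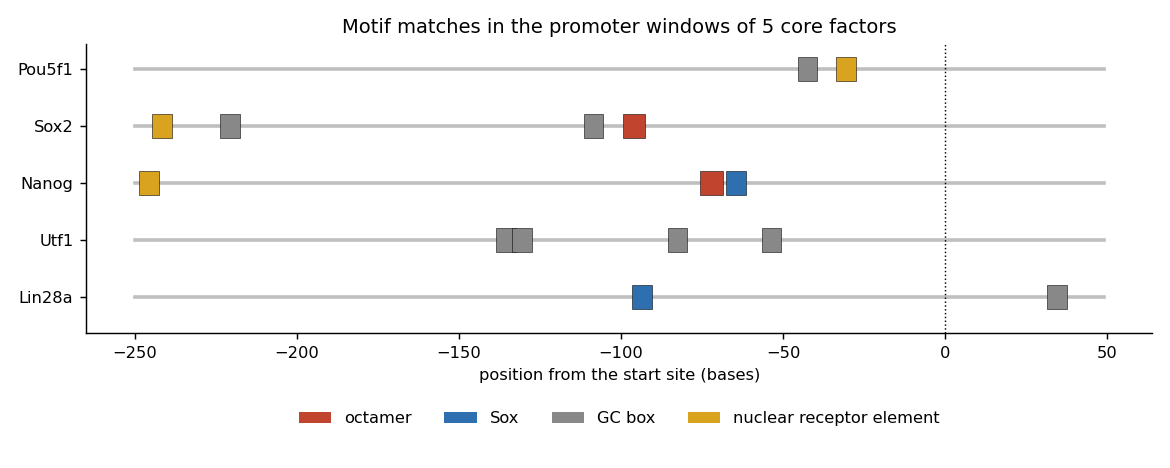
Motif matches in the RefSeq promoter windows of 5 core factors (first start site of each), with distance from the start site in bases on the x axis and 1 grey line per window. Coloured boxes are octamer, Sox, GC box and receptor element matches on either strand, and the Nanog octamer and Sox boxes lie next to each other between 75 and 62 bases upstream.

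The values of the 6 genes on the 6 arrays are taken in order, first the DNA-binding core. They are deposited log2 summaries, so a difference of 1 is a doubling, and since probe sets hybridize with unlike efficiency no level is set against that of another probe set. Pou5f1 (1417945_at) read 12.96 for A1, 13.08 for B3 and 12.99 for C6 when uninduced, and 13.15, 12.70 and 12.81 in the same order when induced. The highest and the lowest of its 6 values were both on induced arrays, with A1 above and B3 and C6 below all uninduced arrays. The group means were 13.01 ± 0.06 (SD, n = 3) and 12.88 ± 0.23 (SD, n = 3), a difference of -0.13 (95% interval -0.43 to 0.18).

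Sox2 (1416967_at) was the steadiest member across arrays. It read 12.22, 12.33 and 12.32 in uninduced A1, B3 and C6, and 12.13, 12.38 and 12.35 when induced. Both A1 arrays were below all 4 arrays of B3 and C6, and the groups overlapped. Its range over the 6 arrays was 0.25 on the log2 scale, smaller than that of the 9 other members, and its induced minus uninduced difference was -0.00 (95% interval -0.25 to 0.24).

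Nanog (1429388_at) was nearly equal on the 3 uninduced arrays, where all clones read 12.36. When induced it read 12.52 for A1, 12.12 for B3 and 12.36 for C6. The induced arrays therefore lay above, below and level with the uninduced ones, and the mean difference was -0.03 (95% interval -0.30 to 0.25).

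Sall4 had probe sets that behaved differently. The brighter one (1424152_at) read 11.82, 12.06 and 11.93 in uninduced A1, B3 and C6, and 11.89, 12.06 and 11.75 when induced. Its groups overlapped and their means differed by -0.03 (95% interval -0.30 to 0.24). The dimmer one (1424153_s_at, where the suffix marks probes shared by several transcripts) read 8.37, 9.16 and 9.02 when uninduced and 8.89, 8.36 and 8.29 when induced. Here A1 was the lowest uninduced and the highest induced array, B3 and C6 were each lower induced than uninduced, and the mean difference over the 3 clones was -0.34 (95% interval -0.88 to 0.21).

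Utf1 showed the same arrangement at its brightest probe set (1416899_at), which read 11.99, 12.11 and 12.13 in uninduced A1, B3 and C6, and 12.37, 11.80 and 11.73 when induced. Induced A1 was above and induced B3 and C6 were below every uninduced array. The other probe sets read 7.55, 7.84 and 7.87 uninduced against 8.05, 7.58 and 7.30 induced (1443786_at), and 4.36, 4.62 and 4.68 against 4.52, 4.35 and 4.46 (1458333_x_at). The last of these lay below the median of every array. Mean differences over the 3 clones were -0.11 at each of the 3 probe sets, and in each the A1 difference was opposed in sign to those of B3 and C6.

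Lin28a (1437752_at) read 10.69, 11.40 and 11.33 in uninduced A1, B3 and C6, and 11.03, 11.37 and 10.95 when induced. The lowest and the highest value were both uninduced, so the induced arrays lay within the uninduced range, and the mean difference was -0.02 (95% interval -0.49 to 0.45). The second probe set (1421749_at) read 9.91, 10.45 and 9.97 uninduced and 10.01, 9.55 and 9.98 induced, with B3 as both its highest and its lowest array and a mean difference of -0.26 (95% interval -0.69 to 0.16).

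**Figure D2:**
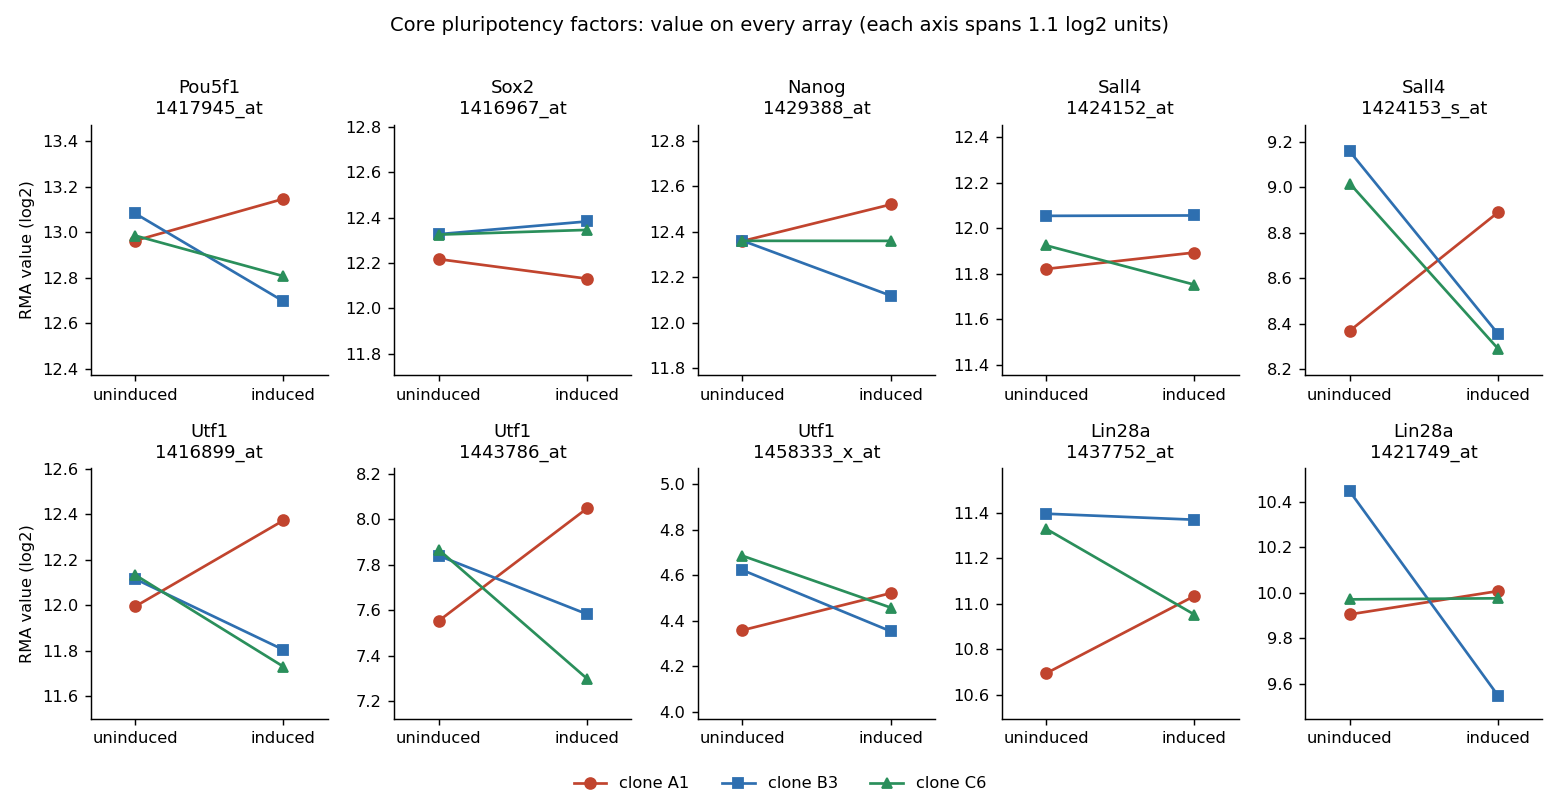
RMA value (log2, y axis) of the 10 probe sets in the uninduced and induced state, as 1 marker per array, where lines connect the states of a clone, on axes that all span 1.1 log2 units. The A1 line slopes against both other lines at 8 of the 10 probe sets, though the C6 line of Nanog is almost flat. Sox2 moves least, between 12.13 and 12.38.

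The comparison the study was designed for, induced against uninduced over the 3 clones, called none of the 10 probe sets. limma, with p-values adjusted by Benjamini-Hochberg over the whole array, gave 0 calls of 45037 (0%), with an adjusted p of 1.00 for each member. Without adjustment 436 probe sets had a p under 0.05, none of them a member, and the smallest member p was 0.188, for the dimmer Lin28a probe set, in the same limma fit. The methods' test, run on the same values, also called 0 probe sets. No member had groups that did not overlap, against 4.55% of all probe sets, and no member had the same direction in the 3 clones, against 18.8%. The intervals of the mean differences reached furthest for the dimmer Sall4 probe set (-0.88 to 0.21) and were narrowest for Sox2.

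The mean over clones joined differences of opposite sign. In A1 the induced minus uninduced difference came to 0.18 for Pou5f1, 0.16 for Nanog, 0.07 and 0.52 for the brighter and dimmer Sall4 probe sets, 0.38 for the brightest Utf1 probe set and 0.34 for the brighter Lin28a probe set. In B3 the corresponding values were -0.39, -0.24, 0.00 and -0.80, -0.31 and -0.03, and in C6 they were -0.18, -0.00, -0.17 and -0.73, -0.40 and -0.38. Sox2 ran the other way, with -0.09 in clone A1 but 0.06 for B3 and 0.02 for C6.

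At 8 of the 10 probe sets the A1 difference was opposed to both others, beside 41.4% of all probe sets. Where the mean value was 6 or more and 60.3% of all probe sets were opposed, this held for 7 of 9 members. At 7 members A1 was the clone with the positive difference and at Sox2 the negative one. The other two, the brighter Sall4 and the dimmer Lin28a probe set, each had 1 clone with a difference within 0.01 of zero and on the side of A1. Nanog, counted as opposed, was as undetermined, since its C6 difference of -0.0002 was also within 0.01 of zero. The count of members is read against a large background and is not particular to them.

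**Figure D3:**
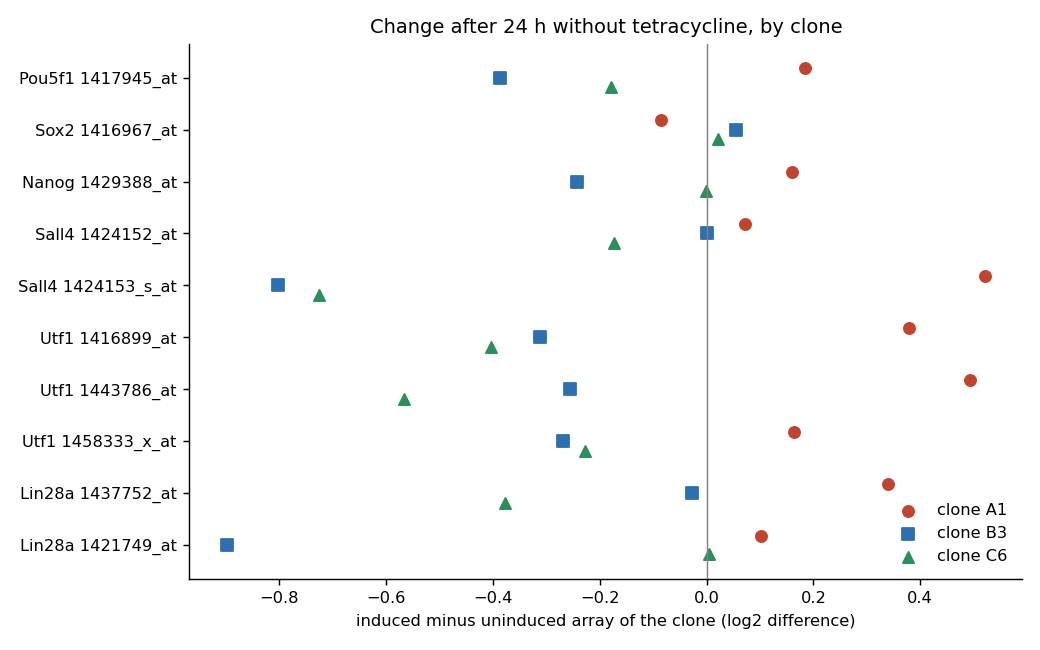
Induced minus uninduced difference of each clone (log2, x axis) for the 10 probe sets, with 1 marker per clone. Clone A1 lies to the right of zero and B3 and C6 to the left at 7 probe sets, the order is reversed for Sox2, and the widest spread is at the dimmer Sall4 probe set (0.52 in A1 against -0.80 and -0.73). The C6 marker of Nanog, counted to the left, lies almost on zero (-0.0002).

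The difference between clones was tested by setting the A1 difference against the mean of the B3 and C6 differences. Sall4 at its dimmer probe set was the single member called. Its A1 difference exceeded the others by 1.28 ± 0.18 (SE; 95% interval 0.87 to 1.70; limma adjusted p = 0.0117), which on the linear scale was a fold of 1.43 for A1 against 0.574 for B3 and 0.605 for C6. Over all probe sets 1.71% were called with a higher A1 difference and 0.999% with a lower one, so 1 member of 10 was called higher and 0 lower. The test rests on 3 differences and the spread between B3 and C6, moderated over all probe sets, and since A1 was already known to stand apart it describes that clone and supports nothing further.

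Utf1 came next, with A1 exceeding the other clones by 0.91 ± 0.20 (SE; limma adjusted p = 0.0525) at 1443786_at and by 0.74 ± 0.18 (SE; limma adjusted p = 0.0741) at 1416899_at. Neither passed the threshold in this fit, nor with mean values of 4 or more kept, nor with the arrays centred on their medians. After quantile normalization only 1443786_at passed, and with a trended, robust prior both did. Both did when the test was limited to mean values of 6 or more, at limma adjusted p = 0.0243 and 0.0277. The interval of the brightest Utf1 probe set was 0.32 to 1.15, and that of the dimmest was -0.00 to 0.82.

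Lin28a differed between A1 and the other clones by 0.54 (95% interval 0.07 to 1.01; limma adjusted p = 0.224) at the brighter and by 0.55 (95% interval -0.16 to 1.26; limma adjusted p = 0.435) at the dimmer probe set. Pou5f1 differed by 0.47 (95% interval 0.03 to 0.90; limma adjusted p = 0.257) and Nanog by 0.28 (95% interval -0.16 to 0.72; limma adjusted p = 0.531). The brighter Sall4 probe set differed by 0.16 (95% interval -0.27 to 0.58; limma adjusted p = 0.751). Sox2 had the one negative value, -0.12 (95% interval -0.54 to 0.29; limma adjusted p = 0.808). None of these values passed the threshold in this fit, which does not show that the clones were alike, and with a trended, robust prior Pou5f1 (limma adjusted p = 0.0142) and the brighter Lin28a probe set (limma adjusted p = 0.0427) did. The signs of all 10 estimates were as given when the arrays were centred on their medians or quantile normalized.

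Without A1, and with the clone as a block, the dimmer Sall4 probe set was lower in the induced than in the uninduced arrays of B3 and C6. The difference was -0.76 ± 0.11 (SE; upper end of the 95% interval -0.52; limma adjusted p = 0.0122). Its spread comes from B3 and C6 alone, moderated over all probe sets. A1 was left out because it was seen to stand apart, and its own difference was 0.52. The effects of the transgene and of tetracycline withdrawal cannot be told apart here either. In this comparison 0.870% of all probe sets were called higher and 1.31% lower, and 0 and 1 of the 10 members were. The call was lost without the block, at limma adjusted p = 0.328. It shares the B3 and C6 arrays with the preceding comparison and is not separate evidence. Utf1 differed by -0.36 (95% interval -0.60 to -0.12; limma adjusted p = 0.130) at its brightest probe set, Pou5f1 by -0.28 (95% interval -0.53 to -0.03; limma adjusted p = 0.246) and the brighter Lin28a probe set by -0.20 (95% interval -0.47 to 0.07; limma adjusted p = 0.468). The dimmer probe sets differed by -0.45 for Lin28a (1421749_at, 95% interval -0.86 to -0.04; limma adjusted p = 0.265), and for Utf1 by -0.41 at 1443786_at (95% interval -0.68 to -0.15; limma adjusted p = 0.115) and by -0.25 at 1458333_x_at (limma adjusted p = 0.288). Nanog at -0.12, the brighter Sall4 probe set at -0.09 and Sox2 at 0.04 had intervals that spanned zero. With a trended, robust prior Pou5f1 (limma adjusted p = 0.0122) and the Utf1 probe sets 1416899_at (limma adjusted p = 0.0039) and 1443786_at (limma adjusted p = 0.0474) also passed here.

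**Figure D4:**
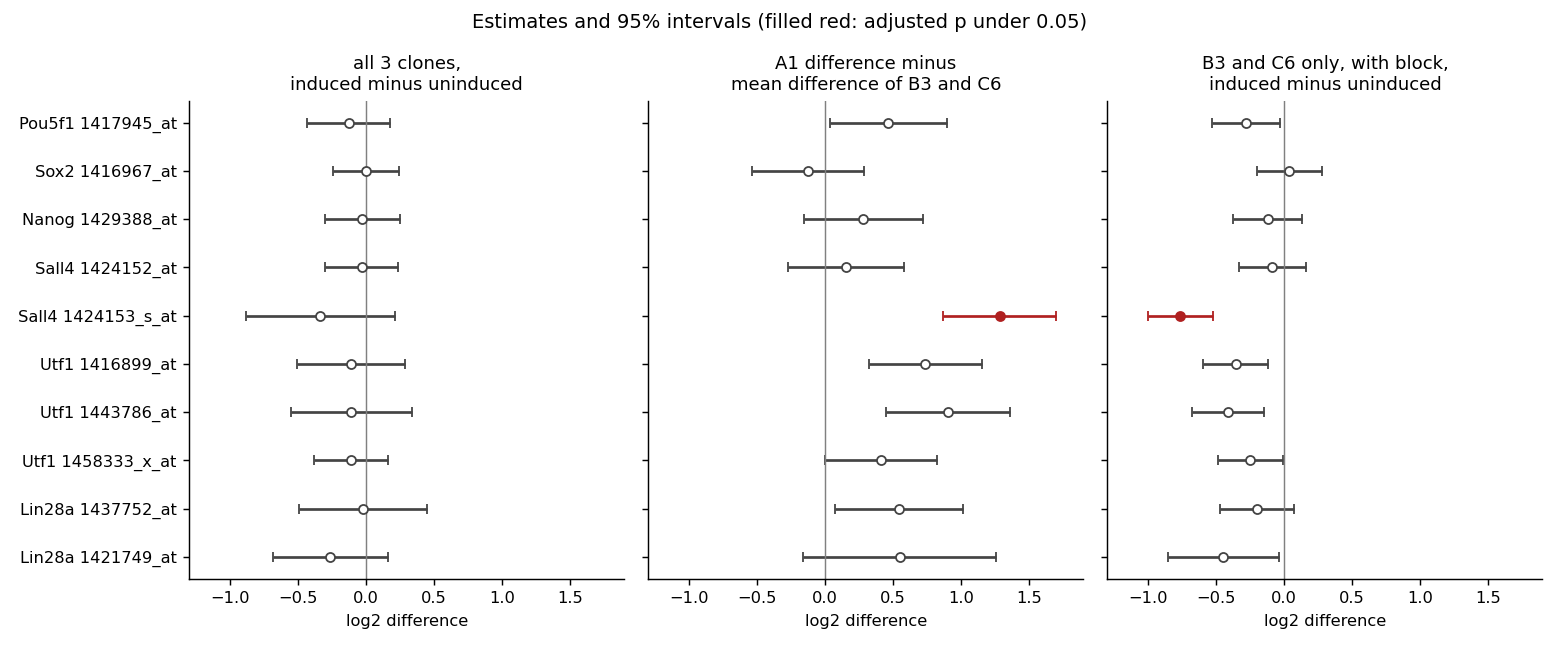
Estimates (points, log2 difference on the x axis) with 95% intervals (bars) for the 10 probe sets in the comparison over 3 clones, in the A1 difference minus the mean of B3 and C6, and in B3 and C6 alone with the clone as a block. Filled red points passed an adjusted p of 0.05, which only the dimmer Sall4 probe set did, at 1.28 and -0.76.

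Since 1 Sall4 probe set was called and the brighter one was not, the difference between probe sets of a gene was itself tested, in a comparison added after these values were seen. The dimmer minus the brighter Sall4 value when uninduced was -3.45 for A1, -2.90 for B3 and -2.91 for C6, and -3.00, -3.70 and -3.46 when induced. The gap changed by 0.45 for A1, by -0.80 for B3 and by -0.55 for C6. The A1 contrast of this gap was 1.13 ± 0.23 (SE; limma adjusted p = 0.0044 over 6167 pairs), and within B3 and C6 the gap differed by -0.68 ± 0.13 (SE; limma adjusted p = 0.0041). Pairs of this kind often differed, as 17.8% of the 6167 pairs were called in the A1 contrast and 19.0% within B3 and C6.

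Utf1 and Lin28a gave no such call. The A1 contrast of the gap was 0.17 (95% interval -0.31 to 0.65; limma adjusted p = 0.664) for 1443786_at minus 1416899_at of Utf1. It was 0.01 (95% interval -0.79 to 0.81; limma adjusted p = 0.995) for the Lin28a pair, where the clones themselves scattered, with gaps that changed by -0.24 for A1, -0.87 for B3 and 0.38 for C6. Which transcripts each probe set detects was not analysed here.

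Across the 6 arrays, which are 2 states of 3 clones and not independent points, the members fell into unlike patterns. Pou5f1 correlated with the brightest Utf1 probe set at r = 0.92 and with Nanog at r = 0.85. Sox2 correlated negatively with each of these, at r = -0.72 with Pou5f1, -0.74 with Utf1 and -0.79 with Nanog. At the Utf1 probe sets 1443786_at and 1458333_x_at, r was 0.78 and 0.59 with Pou5f1, and -0.52 and 0.03 with Sox2. The brighter Sall4 probe set correlated with the brighter Lin28a probe set at r = 0.84 and with Pou5f1 at r = 0.01. The dimmer Sall4 probe set correlated with Pou5f1 at r = 0.77. The Utf1 probe sets 1416899_at and 1443786_at correlated at r = 0.94, those of Sall4 at r = 0.48 and those of Lin28a at r = 0.12.

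Other genes followed single members closely over these 6 arrays, among 9560 candidates whose mean was 6 or more. The nearest to Utf1 were Rangap1, the GTPase-activating protein of Ran in nuclear transport (r = 0.999), and L3mbtl2, a Polycomb-related protein (r = 0.996). Rangap1 read 9.53, 9.75 and 9.76 in uninduced A1, B3 and C6, and 10.27, 9.09 and 8.91 when induced. Its span was wider than that of Utf1 and its order of clones was the same.

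Sox2 was most like Lamb1, a laminin subunit (r = 0.995), and the kinase gene Stk24 (r = 0.990), both with their 2 lowest values on the A1 arrays. The brighter Lin28a probe set was most like Cnn2, a calponin (r = 0.994), and Tspan14, a tetraspanin (r = 0.991). Pou5f1 was most like Rnf115 and Coq10a (r = 0.978 each), Nanog most like Zdhhc24 (r = 0.977) and Chn1 (r = 0.958), and the brighter Sall4 probe set most like Igfbp4, an insulin-like growth factor binding protein (r = 0.992), and Mast3 (r = 0.989). With so many candidates for 6 arrays, these values describe the arrays only.

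Genes that work around the core factors were taken in 5 lists, with each gene represented by its brightest probe set. Every measured gene of the lists of partners, targets and NuRD subunits had a mean of 6 or more, beside 9561 of all 18193 genes. The shares of all genes called, given below, are therefore not matched to these lists for brightness. In the A1 contrast and within B3 and C6, more probe sets were called once dim ones were dropped, as given at the end. No gene of any list was called in the comparison over 3 clones. In the A1 contrast 2.03% of all 18193 genes were called higher, and the median over all genes was 0.00.

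The partners that bind DNA with the core factors had 26 of 28 genes measured, of which 5 were called with a higher and 0 with a lower A1 difference, and a median of 0.33. Klf5, a Krüppel-like factor of self-renewal, read 11.93, 12.21 and 12.08 in uninduced A1, B3 and C6, and 12.49, 11.50 and 11.24 when induced. Its A1 contrast was 1.33 ± 0.19 (SE; limma adjusted p = 0.0111), but 2 of its 3 probe sets had the opposite sign. E2f1, a regulator of cell cycle entry, had 1.20 (limma adjusted p = 0.0146, 1 of 3 probe sets opposite in sign).

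The other called partners had no probe set of opposite sign. Nacc1, a BTB-domain protein, had 1.26 (limma adjusted p = 0.0347), Esrrb, an orphan nuclear receptor of the naive state, 1.02 (limma adjusted p = 0.0347), and Klf2, a further Krüppel-like factor, 1.18 (limma adjusted p = 0.0358). Esrrb read 10.79, 11.11 and 11.04 in uninduced A1, B3 and C6, and 11.30, 10.74 and 10.40 when induced, so induced A1 was above and induced B3 and C6 below all uninduced arrays. Klf4, a Krüppel-like factor used in reprogramming, had 0.33 (limma adjusted p = 0.505), and Zfp42 had -0.01 (limma adjusted p = 0.980). Within B3 and C6, 3 of the 26 partners were called lower, beside 1.36% of all genes, bright and dim. The same fit limited to mean values of 6 or more called 1861 of 17168 probe sets in either direction, so the partners' count is not read as particular to them.

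The target genes of Oct4 and Sox2 had 14 of 16 measured and none called in either direction, with a median of -0.05. Fgf4, a growth factor of ES cells whose enhancer holds Oct4 and Sox2 sites, had an A1 contrast of -0.02 (2 of 4 probe sets opposite in sign), and Fbxo15 had -0.16. Phc1, a Polycomb subunit, had the smallest p of this list, at 0.83 (limma adjusted p = 0.0793), followed by Rif1 at -0.35, Dppa3 at -0.29 and Jarid2 at 0.27. Dppa3, a maternal factor expressed in part of an ES cell culture, was lower in A1 (6.41 and 6.29) than in B3 (7.50 and 7.62) and C6 (8.58 and 8.80) in either state, a difference between clones that was not tested.

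The Lin28 and let-7 pathway had 17 of 21 genes measured, 0 called in either direction, and a median of 0.19. Drosha, the nuclear nuclease of microRNA processing, read 11.55, 11.24 and 11.27 in uninduced A1, B3 and C6, and 11.23, 11.71 and 11.59 when induced, an A1 contrast of -0.71 (limma adjusted p = 0.0861, with 2 of 3 probe sets opposite in sign). The let-7 targets Cdc25a and Arid3a had 0.69 (limma adjusted p = 0.0915, 2 of 3 probe sets opposite in sign) and 0.46 (limma adjusted p = 0.237), and Dis3l2, the nuclease that degrades tailed pre-let-7, had 0.38 (1 of 3 probe sets opposite in sign).

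The NuRD subunits were all measured, 13 of 13, with 2 called higher and 0 lower and a median of 0.10. Gatad2a, a scaffold subunit, had an A1 contrast of 1.33 (limma adjusted p = 0.0154) with none of its 5 probe sets opposite in sign. Mta1 had 1.18 (limma adjusted p = 0.0190, 1 of 2 probe sets opposite in sign). The remodelling ATPase Chd4 had 0.78 (limma adjusted p = 0.0652, 2 of 3 probe sets opposite in sign) and Mta2 had 0.81 (limma adjusted p = 0.0771), while the deacetylase Hdac1 had -0.31 (limma adjusted p = 0.45). Within B3 and C6, 2 of the 13 were called lower, beside 1.36% of all genes, a share that is likewise not matched for brightness.

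Paralogs of the core factors had 12 of 13 genes measured, 0 called in either direction, and a median of 0.19. Sall3 had an A1 contrast of 0.86 (limma adjusted p = 0.0528), Sox3 0.82 (limma adjusted p = 0.0564, 1 of 2 probe sets opposite in sign), Sall1 -0.58 (limma adjusted p = 0.166) and Pou2f3 0.30. Sall1 and Sall3 thus had opposite signs, and the Sall1 probe sets themselves disagreed in sign.

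**Figure D5:**
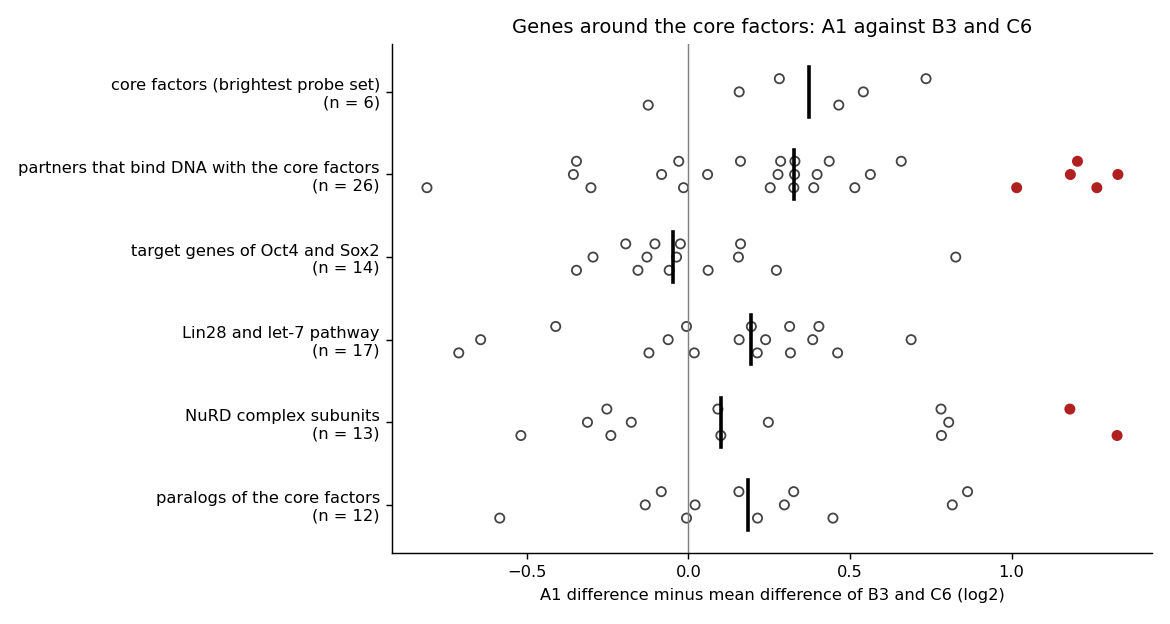
A1 difference minus the mean difference of B3 and C6 (log2, x axis) for the brightest probe set of each core factor and of each measured gene of the 5 lists, 1 circle per gene, with a black bar at the median and filled red circles for an adjusted p under 0.05. The called genes are 5 DNA-binding partners and 2 NuRD subunits, all above 1, while the Oct4 and Sox2 targets lie around a median of -0.05.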

How the data were processed

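Total RNA of 6 cultures was hybridized to Affymetrix whole-genome mouse arrays. The deposited values are log2 probe-set summaries made by the authors by robust multiarray averaging (affy and RMA in the submitters' processing notes), and they were used as they stood. Of 45101 probe sets, 64 Affymetrix controls were left out. Probe sets were named from the platform annotation, where 34945 had 1 symbol, 932 several and 9160 none listed.

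Per probe set, limma 3.58.1 in R 4.3.3 (lmFit, eBayes, two-sided) was used with Benjamini-Hochberg adjusted p-values (45037 probe sets) and a threshold of 0.05. It was fitted to the 6 arrays without a block (the methods name a per-gene test and mention no pairing), to the 3 within-clone differences (A1 against B3 and C6), and to the 4 arrays of B3 and C6 with the clone as a block. The fits were tested on simulated data with known changes and independent noise on each array. That simulation held no clone effects, so it does not show how the fits behave with them. Replicate numbers name the clone, so they pair the samples, and as a check, uninduced and induced arrays deviated together from the group means, at r = 0.19 (A1), 0.53 (B3) and 0.31 (C6). The labels call the arrays biological replicates. The number of arrays, 3 per group, limits the precision.

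The members, gene lists and tests were chosen with earlier results of these data known. The text names every probe set of the 6 genes, up to 4 genes per list with the smallest p in the A1 contrast and a mean of at least 6, and the 2 genes most correlated with each member. A gene is represented by its probe set with the highest mean. Further list genes are named as called genes or for their role, after their values were seen. Alternatives covered the block, variance model, array weights, normalization, filters, 1 probe set per gene and leaving out arrays or clones.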

Additional observations from a re-analysis of the deposited data

Results flagged for a closer look

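At the dimmer Sall4 probe set (1424153_s_at) the A1 difference exceeded the mean of B3 and C6 by 1.28 on the log2 scale (limma adjusted p = 0.0117). One arm of this test is a single clone, A1, which was chosen because it was seen to stand apart, and the spread comes from B3 and C6 alone with moderation over all probe sets, so the value describes these arrays. No group held 4 or more arrays, so no array could be screened as standing apart within its group.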

How the results depend on the processing

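The comparison over 3 clones called 0 members under every alternative run except 1, the fit without clone A1 with the clone as a replicate block, which called 1 (the dimmer Sall4 probe set). With all clones and the replicate block it called 0. Leaving out single arrays also gave 0 to 0. In the A1 contrast the count of 1 became 5 with a trended, robust prior, 2 after quantile normalization, 3 when dim probe sets (mean under 6) were dropped, and 0 when each gene kept 1 probe set, since the called Sall4 probe set is not the brightest. Testing B3 or C6 against the other clones called 0 members in each case, and 0 of all 45037 probe sets. Within B3 and C6 the count of 1 became 4 with the trended, robust prior, 2 without dim probe sets, 0 when each gene kept 1 probe set, and 0 without the replicate block, by limma and by the methods' test. Over all probe sets the counts of 1219 and 981 were 2939 and 2659 with the trended prior and 2355 and 1861 without dim probe sets, and the cause was not tested. With B3 and then C6 in place of A1, which puts A1 among the clones compared against, the sign turned for Pou5f1 (-0.39 and -0.077), the dimmer Sall4 probe set (-0.70 and -0.59), Utf1 1416899_at (-0.30 and -0.44), 1443786_at (-0.22 and -0.69) and 1458333_x_at (-0.24 and -0.17), the brighter Lin28a probe set (-0.0080 and -0.53) and Sox2 (0.09 and 0.04), and under 1 of the swaps for Nanog (-0.32 with B3), the brighter Sall4 probe set (-0.21 with C6) and the dimmer Lin28a probe set (-0.95 with B3). The contrasts of A1, B3 and C6 cancel when added for any probe set, so at least 1 swap had to turn the sign. These turns are therefore no check of the A1 contrast. With 1 array per clone and state, the spread within a clone is unknown.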
